A study of Homo sapiens with 132 samples.

Results

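The transcription factor NF-kB was followed here through 10 genes, taken from the 65217 genes of the deposited count tables by matching each Ensembl identifier to its GENCODE symbol. Of these, 5 encode the subunits (NFKB1, NFKB2, RELA, RELB and REL), 3 encode inhibitors of the IkB family (NFKBIA, NFKBIE and NFKBIZ), and 2 encode ubiquitin enzymes that act in the pathway (TNFAIP3 and BIRC3). All 10 passed the filter on low counts in each of the cell lines.

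NF-kB dimers are held in the cytoplasm by IkB proteins and enter the nucleus when IkB kinase marks these inhibitors for degradation. The canonical arm releases dimers of RELA or REL with the product of NFKB1, while the non-canonical arm processes the NFKB2 precursor, which then pairs with RELB. Several genes of the pathway are themselves NF-kB targets, among them NFKBIA, NFKBIE, TNFAIP3 and BIRC3, so their mRNA is often read as a feedback of the pathway. In epithelial tumour cells the pathway responds to cytokines, and receptors of the EGFR family can also feed into it.

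RNA was sequenced from 4 established gastric cancer cell lines that the series labels MKN1, MKN7, NCI-N87 (N87) and Hs746T, each of them a single line. All 4 lines had an untreated group and groups given afatinib at 0.5 μM, trastuzumab at 5 μg/ml, or both. MKN1 and Hs746T cells were in addition given cetuximab at 1 μg/ml, EGF at 5 ng/ml, or both, which MKN7 and NCI-N87 cells were not. EGF is the ligand of EGFR, cetuximab an antibody against EGFR, trastuzumab an antibody against HER2, and afatinib an inhibitor of the kinases of the EGFR family. RNA was taken after 4 h or 24 h, which gave 44 conditions of 3 replicates. The medium was replaced shortly before treatment in all groups, and afatinib was compared with untreated cells, a solvent control being not analysed here.

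Levels are given as CPM, the counts of a gene scaled to the total of its library after TMM normalization (a scaling by edgeR that allows for differences in library composition). A log2FC is the log2 ratio of 2 conditions with its standard error (SE), from edgeR's quasi-likelihood test fitted over all libraries of a cell line. A gene is said to have risen or fallen where the Benjamini-Hochberg adjusted p over all genes tested was below 0.05, and is called regulated where the log2FC was also above 1 or below -1. A run of 3 values gives replicates 1, 2 and 3 in that order. Whether groups overlap describes the same libraries as the test and adds no support to it. The share of all genes with separate groups was not counted. In these bulk libraries, fewer cells that express a gene and less RNA per cell cannot be told apart.

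The sequences just upstream of the members are shown first, with their matches to kappaB elements, the DNA motifs bound by NF-kB. RefSeq promoter windows of GRCh38.p14 were found for 8 of the 10 genes and gave 13 windows. They hold the 250 bases before the start site and a shorter stretch after it. Matches were counted in the whole windows, and the sequences shown come from the bases before the start site. A match to the kappaB consensus on either strand was found in 9 of the 13 windows, against 5.91% of the 35116 windows of all genes. The 9 windows belonged to 7 genes, with no match in the windows of RELA. Capitals mark only the matches to this kappaB consensus in the following stretches, 1 for each of 6 genes. Each is written 5′ to 3′ on the strand of its gene.
REL (chr2:60881517-60881546, + strand): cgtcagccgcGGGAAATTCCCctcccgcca
NFKB1 (chr4:102501300-102501329, + strand): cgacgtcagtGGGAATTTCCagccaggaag
NFKB2 (chr10:102395674-102395703, + strand): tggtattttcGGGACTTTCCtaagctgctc
NFKBIA (chr14:35404811-35404840, - strand): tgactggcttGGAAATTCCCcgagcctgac
NFKBIZ (chr3:101827757-101827786, + strand): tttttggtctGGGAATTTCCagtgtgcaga
TNFAIP3 (chr6:137867182-137867211, + strand): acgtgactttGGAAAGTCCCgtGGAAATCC
The second TNFAIP3 match runs past the end of its stretch. Most bases of the REL, NFKB1 and TNFAIP3 stretches lie in annotated exons, and those of NFKB2, NFKBIA and NFKBIZ lie outside exons.

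The bases of the NFKBIA window before the start site are also given in full, since they hold no exon of the annotation. They also hold, in lower case, the 9-base kappaB form GGACTTTCC, found in 3 of the 13 windows and 0.37% of all windows. The part of the BIRC3 window before the start site that lies outside exons is given too, and holds 2 matches.
NFKBIA (chr14:35404750-35404999, - strand): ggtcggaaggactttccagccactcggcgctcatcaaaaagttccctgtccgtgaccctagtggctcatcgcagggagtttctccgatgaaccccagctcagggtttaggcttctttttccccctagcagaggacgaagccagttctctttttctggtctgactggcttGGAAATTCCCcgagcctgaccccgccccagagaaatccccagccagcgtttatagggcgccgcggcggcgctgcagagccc
BIRC3 (chr11:102317234-102317449, + strand): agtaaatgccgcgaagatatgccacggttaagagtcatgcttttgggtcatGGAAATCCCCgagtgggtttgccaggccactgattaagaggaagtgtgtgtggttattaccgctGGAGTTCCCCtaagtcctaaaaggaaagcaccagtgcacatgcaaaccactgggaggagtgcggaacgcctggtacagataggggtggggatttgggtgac
A looser motif, GGG and CC with any 5 bases between them, which overlaps the kappaB consensus, was present in all 13 windows and in 58.7% of all windows. In 1 RELA window its only match lay past the start site. The AP-1 motif TGANTCA was found in 0 of the 13 windows, against 7.71% of all windows, and the SRF box likewise in 0, against 1.29%. A match describes the letters of these windows and does not show that a factor bound there.

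The libraries held between 25832557 and 69434151 counts, with a median of 50725775.5. The smallest level taken as detectable, 3 counts, was 0.116 CPM in the shallowest library, which covers counting error only. The epithelial marker CDH1 had a median of 243 CPM in MKN7 and 256 in NCI-N87 cells but 2 CPM in MKN1 and 0.785 in Hs746T cells, and EPCAM followed the same split (626 and 496 against 25.1 and 35.5 CPM). The keratins did not: KRT8, KRT18 and KRT19 had medians of 11100, 2980 and 4170 CPM in MKN1 cells, above those of MKN7 cells, and were lowest in Hs746T cells (342, 150 and 26.4). CLDN4 was lowest in MKN1 cells (7.44) and stood at 308 CPM in Hs746T cells, above MKN7 cells (159). The mesenchymal marker VIM had 1600 CPM in Hs746T and 559 in MKN1 cells, and medians of at most 4.17 in the other lines. ZEB1 followed this split (57.2 and 34.9 against 2.68 in MKN7 and 8.28 in NCI-N87 cells), but FN1 and CDH2 did not. FN1 had 2090 CPM in Hs746T, 677 in MKN1, 624 in MKN7 and 237 in NCI-N87 cells. CDH2 had 79.8 CPM in Hs746T cells but 0.399 in MKN1, 0.657 in MKN7 and 0.209 in NCI-N87 cells. Among blood and endothelial markers, PTPRC, CD3E and CDH5 stayed at or under 0.793 CPM in all libraries, but PECAM1 had medians of 155 CPM in Hs746T and 9.82 in MKN1 cells, CD14 of 4.31 in MKN1 cells and LYZ of 4.43 in NCI-N87 cells.

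On the means of both times, untreated cells of the 4 lines differed most in BIRC3 and TNFAIP3 and least in NFKB1, NFKBIZ, RELA and NFKB2. Here the 6 untreated libraries of a line, from both time points, were set side by side, and the line contrasts were tested in edgeR over all libraries. Between 41.4% and 49.1% of all 22832 genes tested were called at both limits in these line contrasts, so a called member is no exception among genes.

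RELA (ENSG00000173039, chromosome 11, 65653596 to 65663094), which encodes the main activating subunit, ranged from 116 to 150 CPM in MKN1, from 136 to 159 in MKN7, from 130 to 148 in NCI-N87 and from 162 to 202 in Hs746T cells. Only the Hs746T libraries lay wholly above the rest. NFKB1 (ENSG00000109320, chromosome 4, 102501329 to 102617302), which encodes the precursor of the canonical partner subunit, had means of 84, 103, 77.6 and 81.5 CPM in MKN1, MKN7, NCI-N87 and Hs746T cells. Over both times its libraries overlapped between all 4 lines. On the mean of both times the MKN1 and Hs746T levels differed by a log2FC of 0.00 (SE 0.08, edgeR adjusted p = 0.97). This mean joins opposite differences. At 4 h MKN1 cells had 106, 96.4 and 109 CPM against 68.7, 95.9 and 93.6 in Hs746T cells. At 24 h MKN1 cells had 66.4, 58.2 and 67.9 CPM against 67.3, 80.9 and 82.7 in Hs746T cells. NFKBIZ (ENSG00000144802, chromosome 3, 101827991 to 101861022) encodes a nuclear IkB protein that also acts as a coactivator. It had means between 12.9 and 17.2 CPM in the 4 lines, which again join opposite differences. At 4 h MKN1 cells had 10.7, 10.8 and 13.8 CPM, all below the 17.2, 19.6 and 20.8 of Hs746T cells. At 24 h MKN1 cells had 25.8, 18.6 and 23.5 CPM, all above the 11.3, 12.6 and 16.1 of Hs746T cells.

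RELB (ENSG00000104856, chromosome 19, 45001430 to 45038198) and NFKB2 (ENSG00000077150, chromosome 10, 102394110 to 102402529), the pair of the non-canonical arm, followed different orders. RELB had a mean of 54.3 ± 11 CPM (SD, n = 6) in MKN7, 36.9 ± 16.3 in MKN1, 23.7 ± 2.51 in NCI-N87 and 7 ± 2.43 in Hs746T cells. On the mean of both times every neighbouring pair in this order differed, the closest being MKN1 and NCI-N87 (log2FC 0.51, SE 0.19, edgeR adjusted p = 0.01). The order of this pair held at 4 h only. RELB then had 49.4, 52.3 and 53.4 CPM in MKN1 against 24.2, 21.4 and 20.5 in NCI-N87 cells. At 24 h it had 21, 21.3 and 23.8 CPM in MKN1 against 25.4, 23.3 and 27.2 in NCI-N87 cells. NFKB2 was highest in NCI-N87 (102 ± 7.6) and MKN7 cells (92.4 ± 15.9), and this pair was not separated (log2FC -0.15 for MKN7 against NCI-N87, SE 0.10, edgeR adjusted p = 0.18). REL (ENSG00000162924, chromosome 2, 60881521 to 60931610), the subunit best known from lymphoid cells, had a mean of 31.4 ± 2.95 CPM in NCI-N87, 11.8 ± 1.6 in MKN7, 7.53 ± 1.38 in MKN1 and 4.42 ± 0.386 in Hs746T cells, and the log2FC of MKN7 against NCI-N87 cells was -1.42.

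The inhibitors NFKBIA (ENSG00000100906, chromosome 14, 35401511 to 35404749) and NFKBIE (ENSG00000146232, chromosome 6, 44258166 to 44265788) both peaked in MKN7 cells. The lowest, mean and highest NFKBIA level in untreated MKN7 cells were 108, 145 and 181 CPM, against 11.6, 14.7 and 17.8 in NCI-N87 cells (log2FC 3.31, SE 0.12, edgeR adjusted p = 1.1e-44). NFKBIE ran from 64.1 to 108 CPM in MKN7 cells, and from 9.07 to 20.6 over the untreated libraries of the other 3 lines. The MKN7 libraries of both genes lay above all untreated libraries of the other lines.

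TNFAIP3 (ENSG00000118503, chromosome 6, 137867188 to 137883312), which encodes a ubiquitin-editing enzyme that dampens NF-kB signalling, had 142 to 150 CPM in untreated Hs746T cells, 57.2 to 106 in MKN7, 5.46 to 24.3 in MKN1 and 7.33 to 13.5 in NCI-N87 cells. Over both times the last 2 lines overlapped, with a log2FC of 0.11 on the mean of both times (SE 0.11, edgeR adjusted p = 0.36). This mean joins opposite differences. At 4 h MKN1 cells had 18.2, 22.1 and 24.3 CPM, all above the 13.5, 12.9 and 10 of NCI-N87 cells. At 24 h MKN1 cells had 5.46, 6.25 and 6.29 CPM, all below the 10.5, 9.43 and 7.33 of NCI-N87 cells. BIRC3 (ENSG00000023445, chromosome 11, 102317450 to 102339403), which encodes a ubiquitin ligase at TNF receptors, went the other way in Hs746T cells, with 0.401 to 1.62 CPM there, against 122 to 223 in MKN7, 41.8 to 102 in NCI-N87 and 16.2 to 86.9 in MKN1 cells. The line with the most TNFAIP3 mRNA thus had the least BIRC3 mRNA.

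Compared per kilobase of annotated exon, which allows genes to be set against each other, RELA was the first of the 10 genes in untreated MKN1 (24.1 CPM per kb), NCI-N87 (25.3) and Hs746T cells (33.8), and the third in MKN7 cells (27.6). In MKN7 cells NFKBIA (61.3 CPM per kb) and NFKBIE (34.8) stood above it. REL was the last in MKN1 and MKN7 cells, TNFAIP3 in NCI-N87 and BIRC3 in Hs746T cells.

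**Figure D1:**
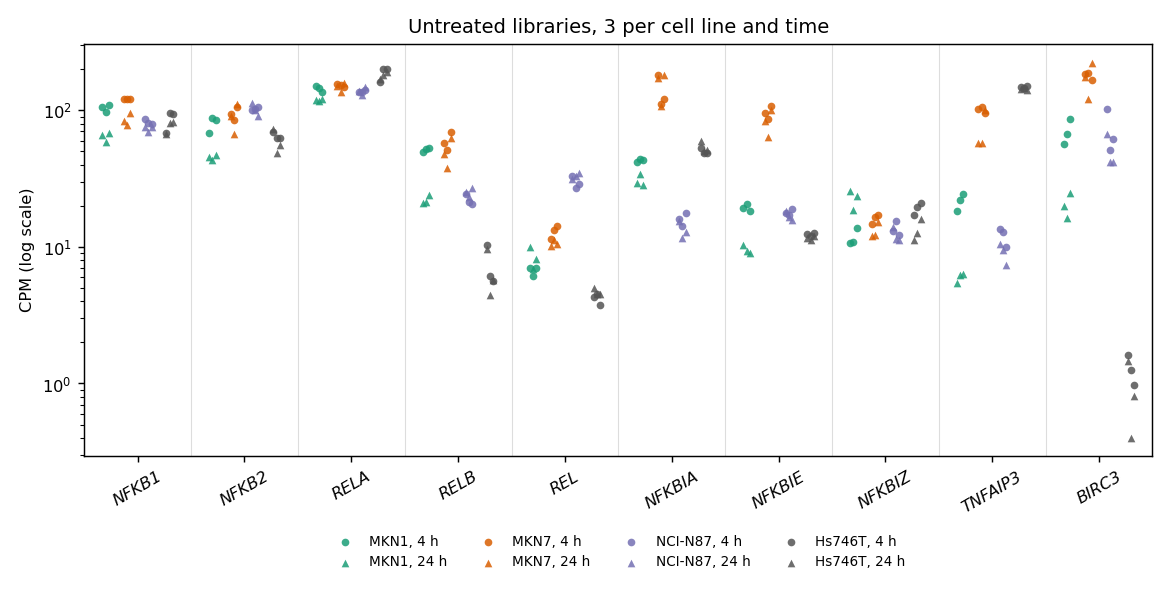
Levels of the 10 NF-kB genes in untreated cells (CPM, log axis) by cell line, with 1 point for each of the 6 untreated libraries of a line, circles for 4 h and triangles for 24 h. TNFAIP3 is highest in Hs746T cells (mean 146) and BIRC3 lowest there (mean 1.09), while NFKBIA and NFKBIE peak in MKN7 cells.

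In untreated MKN1 cells, 9 of the 10 genes differed between 24 h and 4 h, 8 of them lower and 1 higher at 24 h. Among all genes tested, 34.1% differed, 16.4% lower and 17.7% higher. The 2 groups differ in the time since seeding and since the change of medium, and these cannot be told apart.

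TNFAIP3 had 18.2, 22.1 and 24.3 CPM in untreated MKN1 cells at 4 h and 5.46, 6.25 and 6.29 at 24 h (log2FC -1.86, SE 0.12, edgeR adjusted p = 1.0e-12). BIRC3 had 56.6, 67.4 and 86.9 CPM at 4 h and 19.8, 16.2 and 25 at 24 h (log2FC -1.81, SE 0.23, edgeR adjusted p = 2.0e-07). RELB had 49.4, 52.3 and 53.4 CPM at 4 h and 21, 21.3 and 23.8 at 24 h (log2FC -1.25, SE 0.09, edgeR adjusted p = 5.2e-12). In all 3 genes every 24 h library lay below every 4 h library.

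NFKBIE was the other regulated member (log2FC -1.04, SE 0.12, edgeR adjusted p = 6.3e-08), which missed the fold limit without replicate 2 (-0.96) and with library size alone (-0.86), and NFKB2, NFKB1, NFKBIA and RELA fell with log2FC of -0.85, -0.72, -0.51 and -0.30. NFKBIZ rose, from 10.7, 10.8 and 13.8 to 25.8, 18.6 and 23.5 CPM (log2FC 0.93, SE 0.24, edgeR adjusted p = 0.0029), but without replicate 1 its log2FC was 0.76 with an adjusted p of 0.11. RELA likewise had an adjusted p of 0.078 without replicate 1, and 0.052 when scaled by library size alone. REL was the member without a call, with a log2FC of 0.29 (SE 0.16, edgeR adjusted p = 0.15), which the replicate block (the replicate number as a term of the fit) brought to an adjusted p of 0.038. All shares of all genes given here are from the fit without the block. Counts of members under the block therefore have no matching background and cannot be set against these shares.

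The other lines moved less over this interval. In MKN7 cells NFKB1 (log2FC -0.52), REL (-0.33) and NFKBIZ (-0.32) were lower at 24 h, 3 of 10 members against 16.4% of all genes, and with the replicate block 6 members passed, RELB, NFKBIE and TNFAIP3 being the additions, with adjusted p of 0.011, 0.0051 and 0.013. Leaving out replicate 1 brought all 3 of the first-named above the limit, to adjusted p of 0.098, 0.13 and 0.24; without replicate 2 REL stood at 0.098 and NFKBIZ at 0.34, and without replicate 3 REL stood at 0.19. REL and NFKBIZ had adjusted p of 0.089 and 0.12 with library size alone. In NCI-N87 cells 0 members differed by edgeR (background 0.267%), and the block gave 1, BIRC3 (log2FC -0.46, adjusted p = 0.0099). In Hs746T cells it was also 0 (background 1.48%), with 2 under the block: NFKBIZ (log2FC -0.50, adjusted p = 0.00019) and NFKB1 (-0.12, adjusted p = 0.039).

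EGF treatment of MKN1 cells addressed how the mRNA of the 10 genes changed with the ligand of EGFR. Activity of the proteins was not measured in these libraries. After 4 h, 3 of the 10 genes rose and 0 fell, against 6.82% of all genes changed (4.37% higher and 2.45% lower). TNFAIP3 was the regulated member. Its level was 18.2, 22.1 and 24.3 CPM in untreated cells and 42, 41.9 and 44.8 after 4 h EGF treatment (log2FC 1.01, SE 0.12, edgeR adjusted p = 1.3e-07). The groups were far apart, and TNFAIP3 passed the adjusted p limit under every alternative run, although its log2FC lay between 0.90 and 1.07 in them, so the fold limit of 1 was missed under some. The value fell under that limit without replicate 1, at 0.91, when scaled by library size alone, at 0.90, and with only the compared groups in the fit.

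NFKB1 had 106, 96.4 and 109 CPM untreated and 138, 130 and 130 after EGF (log2FC 0.36, SE 0.07, edgeR adjusted p = 0.00053). RELB had 49.4, 52.3 and 53.4 CPM untreated and 66.1, 61 and 60.9 after EGF (log2FC 0.29, SE 0.09, edgeR adjusted p = 0.04). In both genes all EGF libraries lay above all untreated ones. Without replicate 1 the adjusted p was 0.063 for NFKB1 and 0.49 for RELB, and RELB also missed the limit without replicate 2 (0.052) and replicate 3 (0.15) and with library size alone (0.12). With the replicate block 5 members passed, NFKBIE (log2FC 0.31, adjusted p = 0.029) and BIRC3 (log2FC 0.44, adjusted p = 0.00046) joining them. BIRC3 had 82.7, 92.7 and 105 CPM after EGF, and its groups overlapped.

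After 24 h EGF treatment 8 of the 10 genes differed from untreated cells, 6 higher and 2 lower, against 35.8% of all genes (17.3% higher and 18.5% lower). The higher ones were TNFAIP3 (log2FC 0.70), RELB (0.49), NFKBIE (0.45), RELA (0.39), NFKB2 (0.29) and NFKB1 (0.20). TNFAIP3 had 5.46, 6.25 and 6.29 CPM untreated and 8.88, 9.04 and 10.9 after EGF (SE 0.12, edgeR adjusted p = 3.1e-05), and RELB 21, 21.3 and 23.8 CPM untreated and 30.3, 34.2 and 27.3 after EGF (SE 0.09, edgeR adjusted p = 5.4e-05). Neither gene's groups overlapped. The TNFAIP3 level after 24 h EGF was still below that of untreated cells at 4 h.

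The lower ones were NFKBIZ and REL. NFKBIZ had 25.8, 18.6 and 23.5 CPM untreated and 8.69, 7.12 and 13.3 after 24 h EGF, and was regulated (log2FC -1.20, SE 0.24, edgeR adjusted p = 0.0002). REL had 10, 6.91 and 8.1 CPM untreated and 5.96, 3.94 and 5.53 after EGF (log2FC -0.68, SE 0.16, edgeR adjusted p = 0.001). In both genes the groups did not overlap, and both passed the adjusted p limit in every alternative.

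TNFAIP3, RELA and RELB also kept the limit in every alternative. NFKBIE missed it without replicate 1 (adjusted p = 0.056). NFKB1 missed it without replicate 1 (0.17) and replicate 3 (0.12), and NFKB2 without replicate 1 (0.056), replicate 2 (0.28) and replicate 3 (0.087). Scaling by library size alone moved the median of all genes in this comparison from -0.05 to -0.24, and under it NFKB1 had a log2FC of 0.01, NFKB2 of 0.09 and NFKBIE of 0.24, none past the limit.

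The effect of EGF on NFKBIZ was 1.34 lower on the log2 scale at 24 h than at 4 h (log2FC of the difference -1.34, SE 0.34, edgeR adjusted p = 0.01). It was the only member for which this difference passed, against 9.46% of all genes. At 4 h the untreated and EGF libraries of NFKBIZ overlapped, with 13.3, 12.5 and 12.9 CPM after EGF. Without replicate 1 the difference was -1.08 (adjusted p = 0.31), and without replicate 2 it was -1.26 (adjusted p = 0.11). With the replicate block RELA (difference 0.25, adjusted p = 0.031) and BIRC3 (-0.36, adjusted p = 0.041) passed as well.

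**Figure D2:**
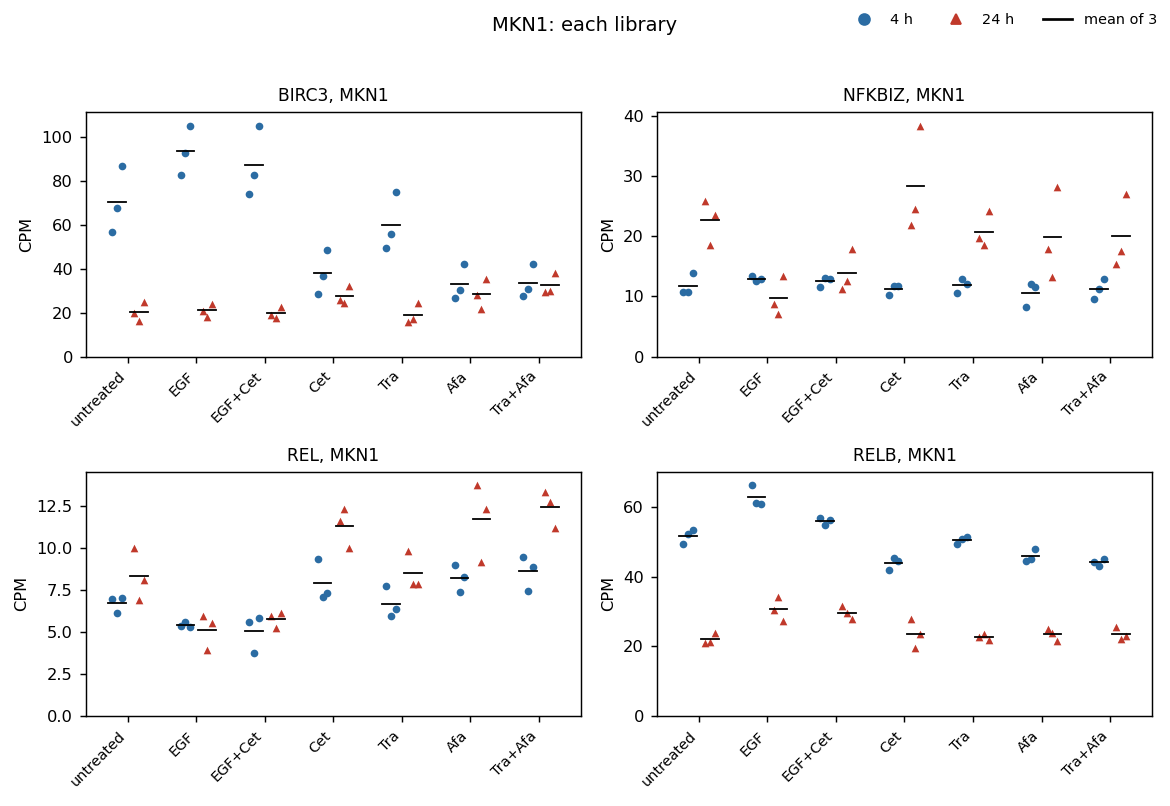
CPM of BIRC3, NFKBIZ, REL and RELB in each MKN1 library by treatment, at 4 h and 24 h, with 1 point per library and a bar at the mean of 3. BIRC3 is lower after cetuximab, afatinib and trastuzumab + afatinib at 4 h, and NFKBIZ is lower after EGF at 24 h.

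Adding cetuximab to EGF addressed how far these mRNA changes were smaller with the antibody. TNFAIP3 had 29.5, 26 and 34 CPM after 4 h EGF + cetuximab, between the untreated and the EGF libraries, and was lower than with EGF alone (log2FC -0.52, SE 0.11, edgeR adjusted p = 0.015). It was the only member of 10 to differ in this comparison, against 0.701% of all genes. Without replicate 1 its adjusted p was 0.18 without replicate 2 it was 0.47, and with library size alone it was 0.11. Under the block NFKB1 also passed (log2FC -0.25, adjusted p = 0.0011). At 24 h 0 members differed between EGF + cetuximab and EGF (background 0.646%), with TNFAIP3 at a log2FC of -0.31 (SE 0.12, edgeR adjusted p = 0.31) and at an adjusted p of 0.028 under the block.

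Against untreated cells, EGF + cetuximab left TNFAIP3 higher at 4 h (log2FC 0.48, SE 0.11, edgeR adjusted p = 0.032), 1 of 10 members against 0.717% of all genes. Under the block BIRC3 passed too, with an adjusted p of 0.031. At 24 h, 5 of 10 members differed, against 18.6% of all genes: RELB (log2FC 0.43), TNFAIP3 (0.38) and RELA (0.23) were higher, and NFKBIZ (-0.70) and REL (-0.53) were lower. Each of these 6 calls, at both times together, was lost without replicate 1, where the adjusted p ran from 0.098 for RELB at 24 h to 0.68 for TNFAIP3 at 4 h. Without replicate 2 TNFAIP3 at 4 h and 24 h, NFKBIZ and RELA missed the limit (0.2, 0.11, 0.11 and 0.08), and without replicate 3 TNFAIP3 at both times, REL and RELA did (0.092, 0.096, 0.086 and 0.053). With library size alone TNFAIP3 at both times and RELA missed it too (0.18, 0.18 and 0.14). The block added NFKBIE at 24 h (log2FC 0.32, adjusted p = 0.015).

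Cetuximab alone lowered 2 of the 10 genes in MKN1 cells after 4 h, against 1.43% of all genes (1.15% lower). BIRC3 had 28.6, 36.6 and 48.4 CPM, with 56.6, 67.4 and 86.9 in untreated cells (log2FC -0.90, SE 0.22, edgeR adjusted p = 0.03). TNFAIP3 had 16.3, 15.4 and 16.2 CPM (log2FC -0.43, SE 0.12, edgeR adjusted p = 0.049). In both genes all cetuximab libraries lay below all untreated ones. BIRC3 missed the limit without replicate 1 (0.31) or 2 (0.27) and with library size alone (0.091), and TNFAIP3 without replicate 1 (0.073), 2 (0.39) or 3 (0.35) and with library size alone (0.21). The block gave 4 members, the others being NFKBIE (log2FC -0.45, adjusted p = 0.0038) and NFKB1 (-0.23, adjusted p = 0.0018).

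At 24 h after cetuximab, 0 members differed by edgeR's test (background 10.8%), and 2 had an unadjusted p below 0.05. NFKBIA stood at a log2FC of 0.28 (SE 0.11, adjusted p = 0.099) and REL at 0.42 (SE 0.15, adjusted p = 0.075). BIRC3 had a log2FC of 0.41 at 24 h. The difference between 24 h and 4 h in the effect of cetuximab passed for 0 members (background 0.192%). For BIRC3 it was 1.31 (SE 0.32, edgeR adjusted p = 0.091), and it passed with the replicate block (adjusted p = 4.9e-08). With the block the differences of TNFAIP3 (0.64, adjusted p = 0.0012) and NFKB1 (0.27, adjusted p = 0.016) passed too. At 24 h the deviations of same-numbered cetuximab and untreated libraries correlated with r from -0.06 to 0.28. The replicate numbers thus did not pair these libraries, which limits what the block can show here.

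Afatinib in MKN1 cells lowered BIRC3, TNFAIP3, NFKBIE and NFKB1 at 4 h. After this treatment 4 of the 10 genes were lower and 0 higher, against 3.68% of all genes changed (2.41% lower and 1.27% higher). BIRC3 was regulated, with 26.5, 30.4 and 42.3 CPM after afatinib and 56.6, 67.4 and 86.9 untreated (log2FC -1.10, SE 0.22, edgeR adjusted p = 0.0023). TNFAIP3 had 14.9, 15.2 and 16.7 CPM after afatinib (log2FC -0.48, SE 0.12, edgeR adjusted p = 0.012). NFKBIE (log2FC -0.42, adjusted p = 0.042) and NFKB1 (-0.25, adjusted p = 0.037) were the others, and none of the 4 genes had overlapping groups.

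These 4 calls were sensitive to single replicates, although all of them passed with the replicate block. Without replicate 1 the adjusted p was 0.067 for BIRC3, 0.31 for NFKBIE and 0.31 for NFKB1. Without replicate 2 it was 0.1 for BIRC3 and 0.21 for TNFAIP3, and without replicate 3 it was 0.1 for TNFAIP3, 0.35 for NFKBIE and 0.51 for NFKB1. The log2FC of BIRC3 stayed between -1.12 and -1.01 over all alternatives. With only library size as the scale, the median of all genes moved from 0.01 to 0.10, and NFKB1, NFKBIE and TNFAIP3 had adjusted p of 0.27, 0.067 and 0.092.

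After 24 h afatinib treatment of MKN1 cells, 2 of the 10 genes rose and 0 fell, against 25.6% of all genes changed (12.2% higher and 13.3% lower), a share of members near the background. Neither gene had passed at 4 h. NFKBIA had 29.3, 34.1 and 28.6 CPM untreated and 42.9, 45.5 and 48.7 after afatinib (log2FC 0.56, SE 0.11, edgeR adjusted p = 0.00035). Its groups did not overlap, and without replicate 3 its adjusted p was 0.058. REL had 13.7, 9.13 and 12.3 CPM against 10, 6.91 and 8.1 untreated (log2FC 0.47, SE 0.15, edgeR adjusted p = 0.022), with overlapping groups and an adjusted p of 0.081 without replicate 1 and 0.32 without replicate 3. With the replicate block 4 members passed, all higher, with TNFAIP3 (log2FC 0.29, adjusted p = 0.012) and BIRC3 (0.46, adjusted p = 0.00018) added.

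The size of the afatinib effect at 24 h was tested against that at 4 h in MKN1 cells. The difference passed for BIRC3 (1.56, SE 0.32, edgeR adjusted p = 0.006), TNFAIP3 (0.76, SE 0.17, edgeR adjusted p = 0.01) and NFKBIA (0.61, SE 0.16, edgeR adjusted p = 0.027), 3 of 10 members against 2.77% of all genes. NFKBIA had not passed at 4 h (log2FC -0.06), and BIRC3 (0.46, adjusted p = 0.14) and TNFAIP3 (0.28, adjusted p = 0.09) did not pass as higher at 24 h without the block. BIRC3 levels under afatinib at 24 h (28, 21.7 and 35.3 CPM) overlapped those at 4 h, whereas the untreated level fell from 4 h to 24 h as described. The call for BIRC3 was lost without replicate 1 (0.12) and replicate 2 (0.062), that for TNFAIP3 without replicate 1 (0.13), 2 (0.055) or 3 (0.11), and that for NFKBIA without replicate 1 (0.23) or 3 (0.44). Fitting only the compared groups gave adjusted p of 0.071, 0.092 and 0.076 for the 3 genes. The block gave 5 members, with NFKB2 (0.39, adjusted p = 0.038) and NFKB1 (0.24, adjusted p = 0.016) added.

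In MKN7 cells afatinib lowered 5 of the 10 genes after 4 h, against 22.2% of all genes changed (12.1% lower and 10.1% higher). NFKBIE was regulated, with 95.6, 85.9 and 108 CPM untreated and 49.9, 41.6 and 55.8 after afatinib (log2FC -1.01, SE 0.18, edgeR adjusted p = 0.00031). NFKB1 had 120, 121 and 120 CPM untreated and 83.8, 82.1 and 77.4 after afatinib (log2FC -0.61, SE 0.10, edgeR adjusted p = 0.00017). TNFAIP3 had 103, 106 and 95.6 CPM untreated and 70.5, 67.5 and 61 after afatinib (log2FC -0.65, SE 0.19, edgeR adjusted p = 0.018). All afatinib libraries of these genes lay below all untreated ones.

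NFKBIZ (log2FC -0.33, adjusted p = 0.038) and RELA (-0.24, adjusted p = 0.018) were the other members that fell at 4 h. NFKBIE and NFKB1 passed the adjusted p limit in every alternative, though the log2FC of NFKBIE ran from -1.02 to -0.94 and the fold limit was missed in several of them, among them without replicate 2, at -0.98. TNFAIP3 missed the adjusted p limit without replicate 1 (0.12) and replicate 2 (0.12), RELA without replicate 1 (0.19) and replicate 3 (0.094), and NFKBIZ without replicate 1 (0.12), 2 (0.17) or 3 (0.098). RELA (0.071) and NFKBIZ (0.12) also missed it with library size alone. With the replicate block 8 members passed, NFKB2 (log2FC -0.26, adjusted p = 0.034), RELB (-0.23, adjusted p = 0.044) and NFKBIA (0.48, adjusted p = 0.0006) being added, the last of them higher. NFKBIA had 180, 112 and 120 CPM untreated and 234, 159 and 196 after afatinib, higher in each replicate while the groups overlapped.

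After 24 h in MKN7 cells, 4 of the 10 genes were lower and 1 was higher, against 51.6% of all genes changed (25% lower and 26.6% higher). TNFAIP3 was regulated, with 57.2, 58 and 100 CPM untreated and 33.7, 29.5 and 40 after afatinib (log2FC -1.07, SE 0.20, edgeR adjusted p = 0.00012). The third untreated library stood well above the others, yet the lowest untreated library exceeded every treated one, and without replicate 3 the log2FC was -0.89 with the adjusted p still below the limit. NFKB1 fell from 83.3, 77.4 and 95.8 to 53.9, 46.2 and 58.3 CPM (log2FC -0.70, SE 0.10, edgeR adjusted p = 9.1e-06), and NFKBIE from 83.8, 64.1 and 101 to 50.2, 37.9 and 54.2 CPM (log2FC -0.82, SE 0.18, edgeR adjusted p = 0.00077). These 3 genes passed in every alternative.

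RELA also fell at 24 h (log2FC -0.23, adjusted p = 0.01; 0.067 without replicate 1), and NFKBIZ rose (log2FC 0.29, adjusted p = 0.034; 0.19 without replicate 1 and 0.2 without replicate 2). With library size alone RELA stood at -0.12 (adjusted p = 0.13), and with only the compared groups RELA and NFKBIZ had adjusted p of 0.059 and 0.079. TNFAIP3 missed the fold limit with library size alone (-0.95). The block added RELB (log2FC -0.28, adjusted p = 0.0093). NFKBIZ had 12, 12.3 and 15.1 CPM untreated and 15.5, 15.9 and 16.9 after afatinib. Its effect of afatinib was higher at 24 h than at 4 h by 0.62 on the log2 scale (SE 0.16, edgeR adjusted p = 0.0086), the only member with such a difference in MKN7 cells, against 18% of all genes. Without replicate 1 or 2 the adjusted p of that difference was 0.093 and 0.097.

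In NCI-N87 cells afatinib raised REL and lowered other members. After 4 h, 4 of the 10 genes differed, 3 lower and 1 higher, against 18.2% of all genes (9.1% lower and 9.06% higher). REL had 33.3, 26.9 and 29.1 CPM untreated and 46.5, 45.7 and 44.7 after afatinib (log2FC 0.62, SE 0.13, edgeR adjusted p = 0.0011). NFKBIE had 17.7, 17 and 18.9 CPM untreated and 11.8, 10.9 and 11.3 after afatinib (log2FC -0.65, SE 0.16, edgeR adjusted p = 0.0052), and NFKB2 101, 103 and 105 CPM untreated and 81.1, 70.9 and 75.9 after afatinib (log2FC -0.44, SE 0.10, edgeR adjusted p = 0.0028). In each of the 3 genes the groups were separate.

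TNFAIP3 was the other gene that fell at 4 h (log2FC -0.65, SE 0.22, edgeR adjusted p = 0.041). Without replicate 2 the adjusted p was 0.051 for REL, 0.094 for NFKB2 and 0.24 for TNFAIP3, and without replicate 3 it was 0.11 for NFKBIE and 0.14 for TNFAIP3. TNFAIP3 had 0.075 with library size alone. The block gave 8 members, adding NFKB1 (log2FC -0.24, adjusted p = 0.003), RELA (-0.24, adjusted p = 0.012), RELB (-0.42, adjusted p = 0.0013) and BIRC3 (-0.40, adjusted p = 0.0039). BIRC3 varied widely between replicates of one condition, with 102, 50.8 and 61.5 CPM untreated and 76.4, 34.4 and 51.1 after afatinib, lower in each numbered replicate.

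After 24 h, 7 of the 10 genes differed in NCI-N87 cells, 6 lower and 1 higher, against 62.5% of all genes (31% lower and 31.5% higher). TNFAIP3 was regulated, with 10.5, 9.43 and 7.33 CPM untreated and 4.87, 2.63 and 3.74 after afatinib (log2FC -1.31, SE 0.23, edgeR adjusted p = 3.3e-05). RELB had 25.4, 23.3 and 27.2 CPM untreated and 15.9, 13.1 and 13.1 after afatinib (log2FC -0.88, SE 0.15, edgeR adjusted p = 2.5e-05), and NFKB2 114, 100 and 90.7 CPM untreated and 67.2, 62.3 and 63.2 after afatinib (log2FC -0.70, SE 0.10, edgeR adjusted p = 2.6e-06). No group of these 3 genes overlapped.

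REL stayed higher at 24 h, with 49.9, 51.8 and 43 CPM against 31.6, 32.8 and 34.8 untreated (log2FC 0.51, SE 0.13, edgeR adjusted p = 0.0012). It and the 3 genes before it passed in every alternative. NFKBIE (log2FC -0.51, adjusted p = 0.008), NFKB1 (-0.44, adjusted p = 0.00018) and RELA (-0.22, adjusted p = 0.028) completed the list, and the block added BIRC3 (log2FC -0.69, adjusted p = 2.4e-06). The RELA groups overlapped. NFKBIE missed the limit without replicate 2 (0.058) and replicate 3 (0.068), and RELA without replicate 1 (0.27), 2 (0.13) or 3 (0.069). Scaling by library size alone moved the median of all genes from 0.03 to 0.29 here, and under it RELA stood at a log2FC of 0.04, NFKB1 at -0.18 (adjusted p = 0.079) and NFKBIE at -0.25 (adjusted p = 0.16), so the direction for RELA rests on the scaling.

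The difference between the 24 h and 4 h effect of afatinib in NCI-N87 cells passed for 0 members (background 35.8%), and for 3 with the replicate block: TNFAIP3 (-0.67, adjusted p = 0.0063), RELB (-0.47, adjusted p = 0.0052) and NFKB2 (-0.25, adjusted p = 0.032).

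**Figure D3:**
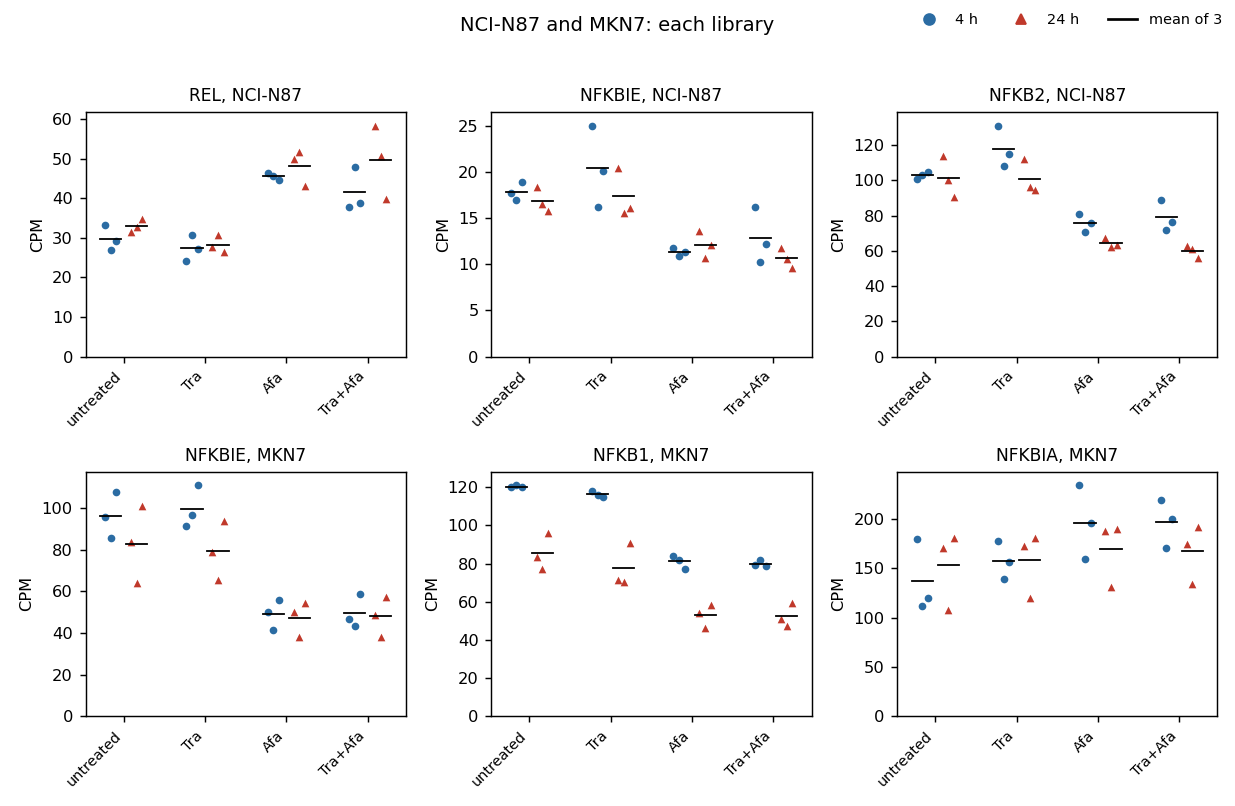
CPM of REL, NFKBIE and NFKB2 in NCI-N87 cells and of NFKBIE, NFKB1 and NFKBIA in MKN7 cells, for untreated, trastuzumab (Tra), afatinib (Afa) and Tra+Afa libraries at 4 h and 24 h, with 1 point per library and a bar at the mean of 3. In NCI-N87 cells REL is higher and NFKB2 lower after afatinib, and in MKN7 cells NFKB1 and NFKBIE are lower.

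In Hs746T cells 0 of 120 tests of a member against untreated cells passed the adjusted p limit by edgeR or DESeq2, and 9 had an unadjusted p below 0.05. The background was 0% for afatinib at both time points. The log2FC of the members ran from -0.31 to 0.55 in these 12 comparisons. TNFAIP3 stayed between 123 and 154 CPM in all 42 Hs746T libraries, a 1.25-fold range, and RELA between 154 and 220. BIRC3 stayed low, between 0.401 and 3.94 CPM with a median of 0.982. NFKBIA had 53.1, 48.7 and 48.4 CPM untreated and 70.2, 62.1 and 55.3 after 4 h afatinib, which was higher in each replicate without passing the limit.

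Trastuzumab did not bring any member past the limit in the 4 lines. This covers trastuzumab against untreated cells and trastuzumab + afatinib against afatinib, at both times, 160 tests in all, of which 2 had an unadjusted p below 0.05 and 0 passed with edgeR, DESeq2 or the replicate block. The log2FC ran from -0.24 to 0.35, and the background was 0% in each of these comparisons.

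The afatinib response could be read again in the trastuzumab + afatinib libraries. This reading is not independent of the first, since same-numbered libraries deviated together in most comparisons and all libraries of a line share the same fit. Set against trastuzumab alone, so that no library is shared with the comparison of afatinib and untreated cells, trastuzumab + afatinib lowered NFKBIE in MKN7 cells at 4 h by a log2FC of -1.01 and NFKB1 by -0.53, with 4 members lower and 0 higher (background 20.5%). At 24 h TNFAIP3 stood at -0.92, NFKBIE at -0.74 and NFKB1 at -0.58, and REL (0.25) and NFKBIZ (0.30) were higher (5 members, background 44.4%). With the block 7 members passed at either time in MKN7 cells. Without replicate 1 the adjusted p was 0.059 for NFKB1, 0.11 for RELA and 0.18 for TNFAIP3 at 4 h, and 0.059, 0.38 and 0.28 for NFKBIE, REL and NFKBIZ at 24 h. Without replicate 2 it was 0.059 for TNFAIP3 at 4 h and 0.12 for NFKBIZ at 24 h, and without replicate 3 it was 0.17 for REL at 24 h. NFKBIE at 4 h missed the fold limit without replicate 2 (-0.95) and with library size alone (-0.93).

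In NCI-N87 cells the same comparison gave 7 members at 4 h (background 19.7%) and 7 at 24 h (background 61.8%), 6 of them lower each time and REL higher, with log2FC of 0.60 and 0.79. TNFAIP3 was regulated at both times (log2FC -1.09 and -1.28), but with library size alone it did not pass the fold limit at 24 h, while REL, at 1.08, did. REL had 24.2, 30.7 and 27.1 CPM with trastuzumab and 37.9, 47.8 and 38.8 with trastuzumab + afatinib at 4 h, without overlap. TNFAIP3 and REL passed the adjusted p limit in every alternative at both times. At 4 h, without replicate 3, the adjusted p was 0.058 for NFKB1, 0.13 for RELB and 0.094 for NFKBIE. RELA missed the limit at 4 h without replicate 1 (0.063), 2 (0.14) or 3 (0.12), and at 24 h without replicate 1 (0.072) or 3 (0.058). With library size alone RELA at 24 h stood at -0.01 (adjusted p = 0.9) and NFKB1 at -0.20 (adjusted p = 0.055), so these 2 calls rest on the scaling. With only the compared groups RELA, RELB and NFKBIE at 4 h had adjusted p of 0.12, 0.08 and 0.07. The block added BIRC3 at both times (adjusted p = 0.00048 and 3.6e-05) and NFKBIA at 24 h (0.049).

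In MKN1 cells trastuzumab + afatinib against trastuzumab gave 3 members lower at 4 h (background 3.08%), BIRC3 (-0.85), TNFAIP3 (-0.57) and NFKB1 (-0.26), and 4 higher at 24 h (background 27.9%), BIRC3 (0.74), REL (0.52), TNFAIP3 (0.40) and NFKBIA (0.34). At 4 h the adjusted p of BIRC3 was 0.23 without replicate 1 and 0.24 without replicate 2, that of TNFAIP3 was 0.11 without replicate 2, and that of NFKB1 was 0.26 without replicate 1 and 0.53 without replicate 3. At 24 h BIRC3 missed the limit without replicate 1 (0.094) or 2 (0.1), TNFAIP3 without replicate 1 (0.16) or 2 (0.072), NFKBIA without replicate 1 (0.23) or 3 (0.44), and REL without replicate 3 (0.15). At 4 h NFKB1 (0.22) and BIRC3 (0.076) missed it with library size alone.

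Trastuzumab + afatinib against untreated cells shares the untreated libraries with the afatinib comparison, and its values are given for completeness. It gave 3 members in MKN1 cells at 4 h and 3 at 24 h (backgrounds 3.95% and 26.8%), 5 and 5 in MKN7 cells (23.4% and 51.9%), and 5 and 8 in NCI-N87 cells (17.3% and 64.7%). At 4 h the block gave 5 members in MKN1, 7 in NCI-N87 and 8 in MKN7 cells, and at 24 h 9 in NCI-N87 and 6 in MKN7 cells. In MKN1 cells, and in NCI-N87 cells at 4 h, 0 of these calls held in every alternative. Regulated members were BIRC3 in MKN1 cells at 4 h (log2FC -1.08) and TNFAIP3 at 24 h in MKN7 (-1.08) and NCI-N87 cells (-1.33), the first of which missed the adjusted p limit without replicate 1 (0.067) or 2 (0.1) and the fold limit with library size alone (-0.98). TNFAIP3 in MKN7 cells missed the fold limit without replicate 3 (-0.90) and with library size alone (-0.96). RELA at 24 h in NCI-N87 cells stood at -0.02 with library size alone (adjusted p = 0.75), and in MKN7 cells at -0.07 (adjusted p = 0.39).

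**Figure D4:**
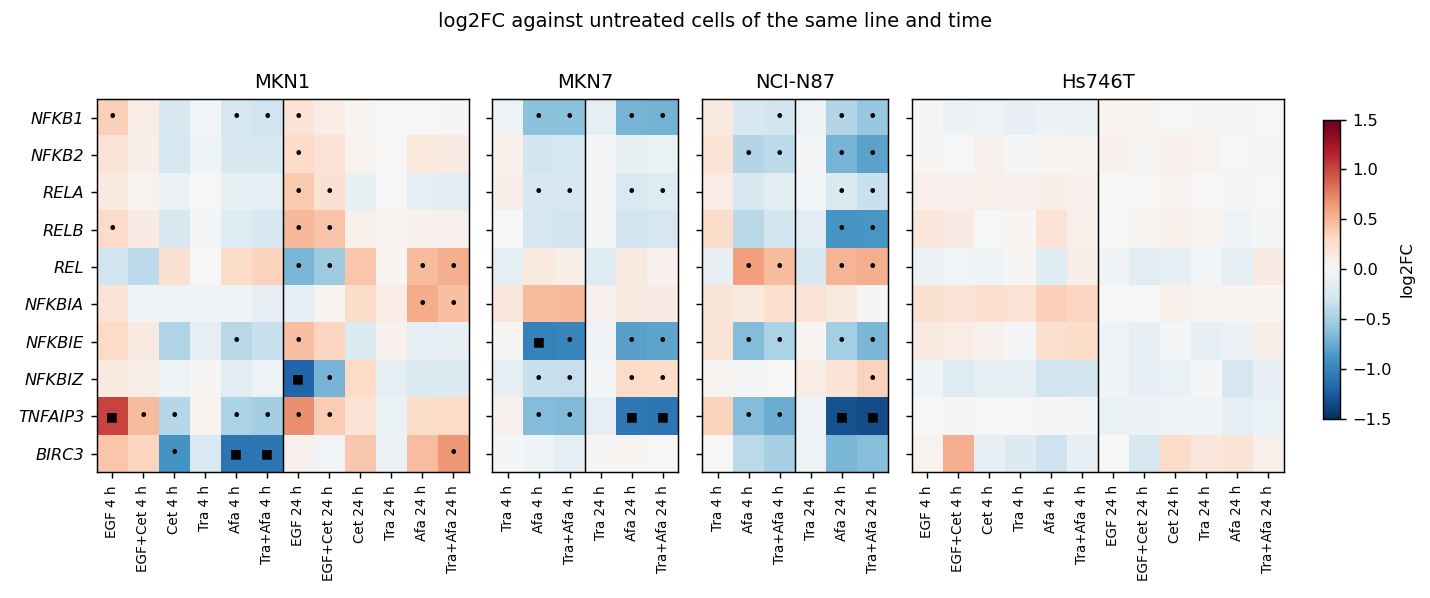
Log2FC of the 10 NF-kB genes (vertical axis) for each treatment against untreated cells, by cell line and time (horizontal axis), on a colour scale from lower (blue) to higher (red). Squares mark regulated genes and dots genes past the adjusted p limit only, and no mark stands in the Hs746T columns or those of trastuzumab alone.

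Whether the lines differ in their response to afatinib was tested directly, as the difference between 2 lines in the log2FC against untreated cells, in edgeR over all libraries. At 24 h TNFAIP3 differed between MKN1 and MKN7 cells by 1.36 (SE 0.22, edgeR adjusted p = 2.0e-06) and between MKN1 and NCI-N87 cells by 1.58 (SE 0.23, edgeR adjusted p = 1.1e-08). It differed from Hs746T cells by -0.92 in MKN7 (SE 0.21, edgeR adjusted p = 0.00044) and by -1.13 in NCI-N87 cells (SE 0.22, edgeR adjusted p = 8.1e-06). All 4 differences held in the 5 alternatives run (library size alone, the block, and each replicate left out). TNFAIP3 thus fell in MKN7 and NCI-N87 cells relative to both other lines.

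**Figure D5:**
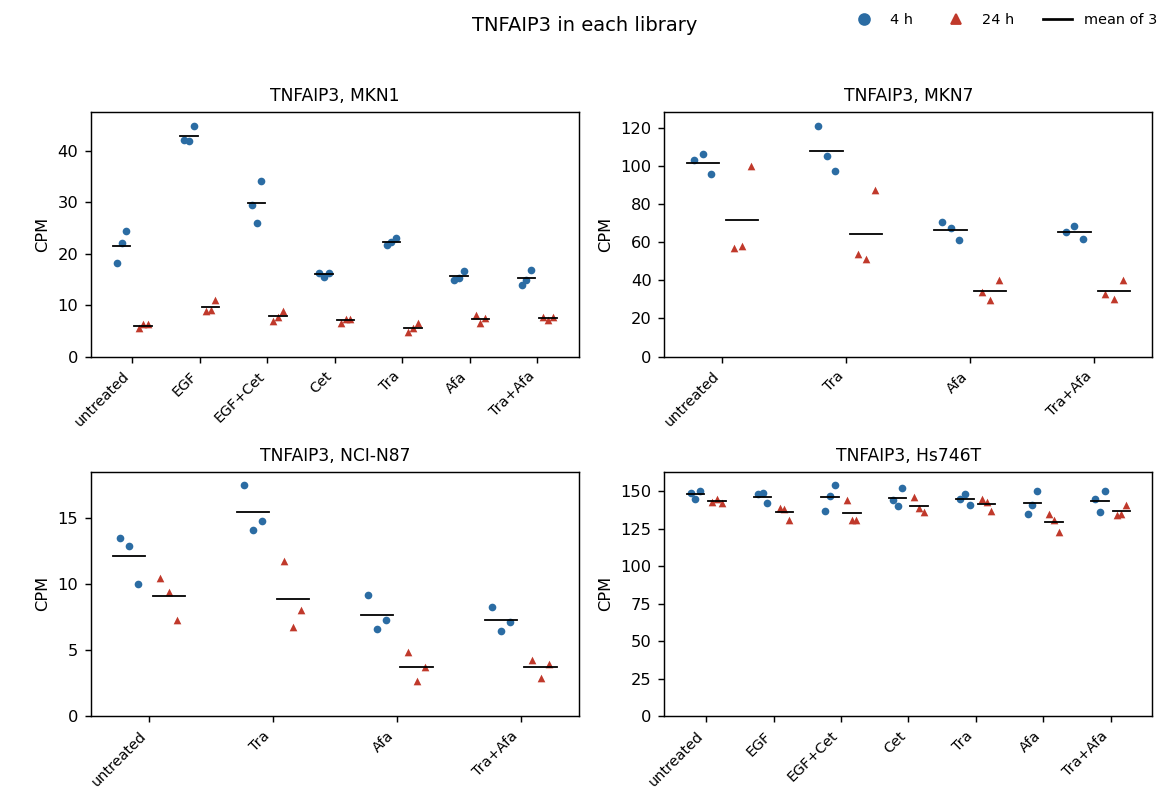
CPM of TNFAIP3 in every library of the 4 cell lines by treatment (Cet is cetuximab, Tra trastuzumab and Afa afatinib), at 4 h and 24 h, with 1 point per library and a bar at the mean of 3. The untreated level falls from 4 h to 24 h in MKN1 cells, EGF raises it at 4 h there, and the 24 h afatinib libraries lie below the untreated ones in MKN7 and NCI-N87 cells.

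Between MKN1 and MKN7 cells at 24 h, 3 members differed in the effect of afatinib (background 7.61%), the others being NFKB1 (0.71, adjusted p = 0.0016) and NFKBIE (0.69, adjusted p = 0.023). Between MKN1 and NCI-N87 cells it was 4 (background 28%), the others being NFKB2 (0.84, adjusted p = 0.0006), RELB (0.94, adjusted p = 0.05 after rounding) and NFKB1 (0.43, adjusted p = 0.04). Without replicate 2 the adjusted p was 0.11 for NFKB1 and 0.1 for NFKBIE against MKN7, and 0.26 for NFKB1 and 0.19 for RELB against NCI-N87. Without replicate 3 it was 0.058, 0.29, 0.21 and 0.29 in the same order, and without replicate 1 NFKBIE missed the limit (0.07). NFKB1 (0.26) and RELB (0.1) missed it against NCI-N87 with library size alone. With the replicate number within each line as a block, 6 and 7 members passed.

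Between MKN7 and Hs746T cells 3 members differed at 24 h (background 18.8%), with NFKB1 at -0.68 (adjusted p = 0.0011; 0.053 without replicate 2 and 0.066 without replicate 3) and NFKBIE at -0.72 (adjusted p = 0.0075; 0.28 without replicate 3). At 4 h NFKBIE differed by -1.17 (SE 0.21, edgeR adjusted p = 3.0e-05), 1 member against 5.3% of all genes, and held in these alternatives, while the block gave 4 members. Between NCI-N87 and Hs746T cells 4 members differed at 24 h (background 35.1%), with REL at 0.67 (adjusted p = 0.0046), NFKB2 at -0.65 (adjusted p = 0.0072; 0.15 without replicate 3) and NFKB1 at -0.40 (adjusted p = 0.05 after rounding; 0.23 and 0.35 without replicates 2 and 3). At 4 h it was 2 members (background 6.74%), REL at 0.84 (adjusted p = 0.0024; 0.14 without replicate 2) and NFKBIE at -0.85 (adjusted p = 0.0036; 0.1 without replicate 3). NFKB1 (0.51) and NFKB2 (0.074) missed the limit at 24 h with library size alone. The block gave 7 members at 24 h and 6 at 4 h.

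Between MKN7 and NCI-N87 cells NFKB2 differed at 24 h by 0.56 (SE 0.20, edgeR adjusted p = 0.035), 1 member against 21.4% of all genes, and the call was lost without replicate 1 (0.12), 2 (0.1) or 3 (0.2) and with library size alone (0.09). The block gave 5 members. REL, which rose in NCI-N87 cells, did not pass against MKN7 cells (difference -0.41 for MKN7 minus NCI-N87, adjusted p = 0.12), and it passed with the block (adjusted p = 0.022). Between MKN1 and Hs746T cells 0 members passed in edgeR at either time (backgrounds 4.41% at 24 h and 0.372% at 4 h), and the block gave REL (0.61, adjusted p = 0.007) and NFKBIA (0.53, adjusted p = 0.003) at 24 h and NFKBIE (-0.60, adjusted p = 0.0065) at 4 h. At 4 h 0 members passed between MKN1 and MKN7 (background 1.38%), MKN1 and NCI-N87 (1.83%) or MKN7 and NCI-N87 cells (1.01%), with 4, 1 and 1 under the block.

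The other genes of the pathway were read from 2 lists. These were 34 upstream and other regulators (receptors, adaptors, kinases and further IkB proteins) and 26 genes known as NF-kB targets. Beside them, 12 MAPK target genes served as a readout of the EGFR pathway. All these lists were chosen with earlier results of these data known, so their counts against all genes are not independent results. In NCI-N87 cells at 24 h after afatinib, 10 of the 18 tested target genes were called lower and 1 higher, with a median log2FC of -1.33 against 0.03 for all genes (11.5% of all genes were called lower). CSF2 (-5.57) and CXCL8 (-4.70), which encode secreted cytokines, and LIF (-2.18) led the list. Among 32 tested regulators 5 were called lower and 1 higher, with a median of -0.06. The share called lower was near the 11.5% of all genes. The largest falls were those of the TNF receptor family members TNFRSF1B (-2.89) and TNFRSF12A (-2.43) and of CHUK (-1.41), an IkB kinase subunit. The 10 members had a median of -0.48.

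At 4 h in NCI-N87 cells 9 of the 18 target genes were called lower (median -0.88, and 1.22% of all genes called lower), with CSF2 at -4.01, CXCL8 at -4.00 and LIF at -1.96, and 2 of 32 regulators were called lower, TNFRSF1B (-1.10) and TNFRSF12A (-1.06). In MKN7 cells 6 of 20 target genes were called lower at 4 h (median -0.64, 1.59% of all genes), with CSF2 (-2.21), CCL20 (-1.92) and BCL2L1 (-1.70) in front, and 10 of 20 lower and 1 higher at 24 h (median -0.96, 3.25% of all genes), with the interleukins IL1A (-3.19) and IL1B (-3.09) and CSF2 (-2.59) in front. TNFRSF1B was also called lower in MKN7 cells at 24 h (log2FC -1.68), the only one of 32 tested regulators, a share near the 3.25% of all genes. The members had medians of -0.26 at 4 h and -0.17 at 24 h in MKN7 cells, nearer to 0 than the targets.

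In MKN1 cells 7 of 22 target genes were called lower after 4 h afatinib (median -0.55, 0.439% of all genes), with CSF2 (-2.37), CXCL8 (-1.98) and CXCL1 (-1.89) in front, and 5 after 4 h cetuximab (median -0.44, 0.257% of all genes), with CSF2 (-1.86), CXCL8 (-1.78) and CXCL1 (-1.66). After 4 h EGF 8 were called higher (median 0.72, 1.23% of all genes), with CSF2 (2.74), CXCL8 (1.97) and CCL2 (1.94). At 24 h EGF gave 5 higher ones (median 0.58, 2.11% of all genes), with IL1B (3.07), CSF2 (2.90) and CXCL8 (1.68), and TNFRSF1B rose by 1.35 while TRAF1, an adaptor of TNF receptors, fell by 1.12 on the log2 scale. At 24 h after afatinib 2 target genes were called lower, IER3 (-1.81) and CXCL8 (-1.38), and after cetuximab IER3 alone (-1.54), with medians of -0.20 and -0.21. The share of all genes called lower is not given for afatinib or cetuximab at 24 h, so these counts cannot be set against a background.

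The MAPK target genes had larger median changes than these lists. All 11 that were tested were called lower after afatinib at both times in MKN1 (medians -2.25 at 4 h and -2.65 at 24 h) and NCI-N87 cells (-2.53 and -3.83), and 10 and 11 of 11 in MKN7 cells (-2.22 and -2.75). The shares of all genes called lower are those given above. None is given for MKN1 cells at 24 h, so that count cannot be set against a background. Like the 2 lists above, this list was chosen with earlier results of these data known, so its falls are not an independent result. IER3 belongs to both the target and the MAPK list. In Hs746T cells 0 genes of any list were called in the comparisons with afatinib, EGF or cetuximab, and the medians of the members there lay between -0.04 and 0.04.

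Over the 44 conditions, after the mean of the same line and time was subtracted, the members fell into those that moved together and those that did not. Pearson's r between mean log2 CPM values was 0.93 for TNFAIP3 and NFKB1, 0.93 for NFKB2 and RELB, 0.91 for NFKB1 and NFKBIE, and 0.90 for TNFAIP3 with NFKB2 and with RELB. REL ran against the other subunits, with r from -0.88 with RELA to -0.58 with NFKB1. NFKBIA and NFKBIZ had r between -0.51 and 0.50 with every other member. These values describe 44 conditions that share untreated cells, lines and libraries, and carry no test.

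Among the 11747 genes measured in all lines above a mean log2 CPM of 1, the nearest to TNFAIP3 by the same measure were EFNB2 (r = 0.97), OAF (0.96) and ADAM19 (0.95). Nearest to NFKB1 were BTBD19 (0.95), EFNB2 (0.94) and FHOD1 (0.94), and to NFKBIE FHOD1, MLKL and PLK3 (0.95 each). RELB was followed by SMOX (0.95), STAMBPL1 (0.94) and AC091212.1 (0.94), NFKB2 by CDC42EP2, FAM49B and SLC12A4 (0.94 each), RELA by TERF2 (0.96), ASB6 (0.95) and ZNF574 (0.95), and REL by ZBED3-AS1, AL158206.1 and TRIM2 (0.94 each). The nearest genes were less close for NFKBIA (TNFAIP8 0.85, ALDH2 0.84, SRI 0.83), BIRC3 (FAM84B 0.82, PDLIM5 0.82, RBFOX2 0.80) and NFKBIZ (CSAD 0.82, DNMT3A 0.81, AL390728.4 0.80).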

How the data were processed

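RNA of 44 conditions (3 replicates each, numbered in the labels) was sequenced as paired ends after directional library preparation. The authors deposited raw read counts per gene for each library; the submitters' processing notes list Trim Galore, STAR and hg38, and the counting tool and annotation are not given in the sources used here. The methods describe in vitro data in general as coming from independent experiments, and the labels only number the libraries, so p-values measure the spread between these samples.

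Identifiers were matched to GENCODE 29; 8404 of them had no gene there and held 0.0422% of counts. Genes were filtered with edgeR's filterByExpr (minimum count 10, minimum total 15), scaled by TMM and fitted by quasi-likelihood over all libraries of a line (genes tested were 18667 for Hs746T, 19815 for MKN1, 18483 for MKN7 and 19078 for NCI-N87), or over the libraries of all lines for contrasts between lines (22832 genes), with Benjamini-Hochberg adjustment. CPM values were scaled over all libraries together. The limits were an adjusted p of 0.05 and an absolute log2FC of 1. Same-numbered replicates deviated together (every r above 0.1) in 59 of 64 comparisons, with r from -0.15 to 0.95, so the replicate block is printed where it changes a call or, for trastuzumab + afatinib, a count; the 5 exceptions were MKN1 comparisons at 24 h. Alternatives were library size alone, DESeq2, other count filters, only the compared groups, no fold limit, the block, and leaving out each replicate. The script was tested on simulated data.

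The members were named in every comparison; of the other lists, at most 3 regulated genes with the largest change in each afatinib, EGF or cetuximab comparison were named, and for likeness the 3 genes with the highest r. The members and lists were chosen with earlier results of these data known. Software was R 4.3.3, edgeR 4.0.16, limma 3.58.1, DESeq2 1.42.0, Python 3.11.15, pandas 2.3.3 and matplotlib 3.10.9.
Values of some genes are not reported here.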

Additional observations from a re-analysis of the deposited data

Results flagged for a closer look

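A tested difference between times or cell lines in the response of a member is listed here with its edgeR log2 difference. Many of these calls were lost in some alternatives, as given with each result above. In MKN1 cells the effect of afatinib was higher at 24 h than at 4 h for BIRC3 (1.56), TNFAIP3 (0.76) and NFKBIA (0.61), and that of EGF was lower for NFKBIZ (-1.34). In MKN7 cells the effect of afatinib on NFKBIZ was higher at 24 h (0.62). Of these differences between times, 0 kept their call in all alternatives.

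At 24 h the effect of afatinib in MKN1 minus that in MKN7 cells was 1.36 for TNFAIP3, 0.71 for NFKB1 and 0.69 for NFKBIE. For MKN1 minus NCI-N87 cells it was 1.58 for TNFAIP3, 0.94 for RELB, 0.84 for NFKB2 and 0.43 for NFKB1. For MKN7 minus NCI-N87 cells it was 0.56 for NFKB2.

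For MKN7 minus Hs746T cells it was -0.92 for TNFAIP3, -0.72 for NFKBIE and -0.68 for NFKB1 at 24 h, and -1.17 for NFKBIE at 4 h. For NCI-N87 minus Hs746T cells it was -1.13 for TNFAIP3, 0.67 for REL, -0.65 for NFKB2 and -0.40 for NFKB1 at 24 h, and 0.84 for REL and -0.85 for NFKBIE at 4 h.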

How the results depend on the processing

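Of 141 results of a member past the adjusted p limit, 140 kept their sign and 51 their call in all alternatives; the replicate block lost none of them. Differences between lines were run only with library size alone, the block and each replicate left out. RELA after 24 h afatinib in NCI-N87 cells turned to a log2FC of 0.04 with library size alone, where the median of all genes moved by 0.26. The counts below are of regulated members, or of members past the adjusted p limit for differences of effects, and where no cause is named the cause was not tested. Without the fold limit the counts in MKN1 cells were 3 and 8 (EGF, 4 h and 24 h), 2 (cetuximab, 4 h), 1 (EGF + cetuximab against EGF, 4 h), 1 and 5 (EGF + cetuximab), 4 and 2 (afatinib), 3 and 3 (trastuzumab + afatinib), 3 and 4 (trastuzumab + afatinib against trastuzumab) and 9 (24 h against 4 h untreated). In MKN7 cells they were 5 and 5 (afatinib), 5 and 5 (trastuzumab + afatinib), 4 and 5 (against trastuzumab) and 3 (untreated). In NCI-N87 cells they were 4 and 7, 5 and 8, and 7 and 7 in the same order. With library size alone the count was 0 for EGF and trastuzumab + afatinib in MKN1 cells at 4 h, for afatinib in MKN7 cells at 4 h and 24 h, for trastuzumab + afatinib there at 24 h and against trastuzumab at 4 h, and, for the effect of afatinib at 24 h, 2 for MKN1 minus NCI-N87 and 0 for MKN7 minus NCI-N87 cells. With only the compared groups it was 0 for EGF at 4 h and for the 24 h minus 4 h effect of afatinib in MKN1 cells. Without a filter it was 0 for afatinib in MKN7 cells at 4 h and 1 for the 24 h minus 4 h effect of cetuximab, and DESeq2 gave 2 for the latter. With at least 10 counts in every library it was 0 for afatinib and for trastuzumab + afatinib against trastuzumab in MKN7 cells at 4 h.

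With the replicate block the 24 h minus 4 h effects gave 5 (afatinib), 3 (cetuximab) and 3 (EGF) in MKN1 and 3 (afatinib) in NCI-N87 cells. Between lines the block gave, at 24 h and 4 h, 2 and 1 (MKN1 minus Hs746T), 6 and 4 (MKN1 minus MKN7), 7 and 1 (MKN1 minus NCI-N87), 5 and 1 (MKN7 minus NCI-N87), 7 and 6 (NCI-N87 minus Hs746T), and 4 at 4 h (MKN7 minus Hs746T). Where the numbers do not pair the samples, the block gave 3 members for cetuximab at 24 h in MKN1 cells, against 0 without it. The 24 h minus 4 h effect of cetuximab uses these same libraries. Leaving out 1 replicate gave 0 to 1 regulated members for EGF at 4 h, afatinib and trastuzumab + afatinib at 4 h in MKN1 cells and for afatinib and trastuzumab + afatinib in MKN7 cells at either time, also against trastuzumab, and 4 to 5 for untreated MKN1 cells over time. For differences of effects it gave 0 to 1 for 24 h minus 4 h in MKN1 and MKN7 cells, and at 24 h 0 to 1 (MKN1 minus Hs746T), 1 to 2 (MKN1 minus MKN7), 2 to 5 (MKN1 minus NCI-N87), 1 to 3 (MKN7 minus Hs746T), 0 to 0 (MKN7 minus NCI-N87) and 2 to 5 (NCI-N87 minus Hs746T), and at 4 h 1 to 2 (NCI-N87 minus Hs746T). With 3 replicates a condition, small changes may go uncalled.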
